A study of Mus musculus with 6 samples.

Results

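Enteroendocrine cells are scattered hormone-secreting cells of the gut epithelium, and 10 of their genes were followed by RNA-seq in Paneth cells sorted from mice. The genes were chosen by name from the 55414 genes of the deposited count table. They comprised 6 hormone genes (Gcg, Cck, Sct, Gip, Tac1 and Ghrl), 2 granin genes (Chga and Chgb), the enzyme gene Tph1 and the transcription factor gene Neurod1. All mice were wild type, of the C57BL/6J strain per the study's methods, and all received TNF 3 hours before sampling. The standard diet group (labelled St_TNF, 3 libraries) had standard chow and the zinc depleted group (ZincDef_TNF, 3 libraries) had zinc depleted chow, each for 7 weeks. The labels give no age, sex or TNF dose. Cells were sorted by FACS from a suspension of small intestine, so the libraries hold the cells that passed the gate for Paneth cells.

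Enteroendocrine cells arise from the same crypt stem cells as Paneth cells and belong, like them, to the secretory lineage. Subtypes make different hormones, and the subtypes present vary along the gut. The hormones are cut from longer precursors and stored in dense core granules together with the granins, while Tph1 makes the serotonin precursor in enterochromaffin cells. Neurod1 is a basic helix-loop-helix factor that acts in the differentiation of these cells by binding E-boxes.

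The libraries held 6139397 to 12772373 counts, and a count of 0 therefore allows up to 3 counts, or 0.235 to 0.489 CPM (counts per megacount of the library's total). Such limits and all intervals given here cover counting error only, because no molecular identifiers are mentioned and reads may be copies of 1 molecule. The Paneth cell label was checked against its markers, and all 8 Paneth cell markers were counted in every library, and they summed to 407092 to 487268 CPM in St_TNF and 460020 to 542476 CPM in ZincDef_TNF. The TMM factors, which rescale the libraries so that most genes are level, ranged from 0.46 in zinc depleted replicate 3 to 1.73 in standard diet replicate 1. Levels are given in CPM of the total unless TMM CPM is named, and the order of the libraries can differ between these scales. The design text calls the replicates biological without saying whether each was 1 animal, so the p-values measure the spread between these libraries.

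The stretches of 200 bases before the start of the canonical transcript were read from GRCm39 for the 10 genes to see which letters they share. The E-box letters CANNTG were found in 9 of the 10, the exception being Tph1, against 56% among the 21770 stretches of all protein coding genes. The narrower form CAGATG, read on both strands (CATCTG on the other) and itself one of the CANNTG forms, was found in Chgb, Gcg and Tac1, against 10.3% of all. The stretches of 3 genes are shown because they carry the 3 patterns described next, 1 present in 2 libraries (Ghrl), 1 patchy over the diets (Gcg) and 1 even (Sct). Capitals mark CANNTG, and a match describes the letters without being evidence of binding.
Ghrl, chr6:113696845-113697044, minus strand: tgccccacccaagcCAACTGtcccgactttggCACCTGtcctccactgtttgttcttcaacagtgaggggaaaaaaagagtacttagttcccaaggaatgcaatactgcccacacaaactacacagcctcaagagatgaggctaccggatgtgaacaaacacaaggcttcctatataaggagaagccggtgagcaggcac
Gcg, chr2:62313998-62314197, minus strand: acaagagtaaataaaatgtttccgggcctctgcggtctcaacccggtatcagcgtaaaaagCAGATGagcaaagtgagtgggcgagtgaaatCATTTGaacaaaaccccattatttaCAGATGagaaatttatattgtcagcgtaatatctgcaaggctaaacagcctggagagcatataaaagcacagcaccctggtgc
Sct, chr7:140859053-140859252, minus strand: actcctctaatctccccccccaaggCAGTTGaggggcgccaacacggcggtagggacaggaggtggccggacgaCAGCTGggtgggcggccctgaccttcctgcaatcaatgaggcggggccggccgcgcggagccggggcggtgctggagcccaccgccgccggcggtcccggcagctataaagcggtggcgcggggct

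To find which hormones were present, the counts were examined library by library. All 10 genes exceeded 3 counts in at least 1 library, but only Sct, Chga and Chgb did so in all 6. The number of genes above 3 counts was 9, 9 and 6 in standard diet replicates 1, 2 and 3 and 6, 4 and 7 in zinc depleted replicates 1, 2 and 3. Over all genes, the number with any count was 14289, 13902 and 13528 in St_TNF, against 14058, 12507 and 12421 in ZincDef_TNF. The number above 3 counts was not taken over all genes. In zinc depleted replicate 2, Sct, Tac1, Chga and Chgb were the only ones of the 10 with any count. In bulk libraries, a smaller number of enteroendocrine cells and less of these RNAs per cell cannot be told apart.

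Sct (ENSMUSG00000038580, GRCm39 chromosome 7, 140858243 to 140859052, minus strand), which encodes secretin, was counted at a like level in all 6 libraries. It had 181, 177 and 227 counts in St_TNF, against 173, 191 and 244 in ZincDef_TNF. This is 24.7, 28.8 and 22.8 CPM against 17.3, 25.7 and 19.1 CPM, with overlapping groups. In TMM CPM the same counts are 14.3, 19.2 and 25.4 against 11.9, 40.3 and 41.6, so the even pattern belongs to the scale of total counts.

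Ghrl (ENSMUSG00000064177, chromosome 6, 113693080 to 113696844, minus strand), which encodes ghrelin, was counted almost wholly in 2 libraries. It had 275, 149 and 0 counts in St_TNF, against 2, 0 and 0 in ZincDef_TNF, or 37.5 and 24.3 CPM in the 2 high libraries. The groups overlapped, since standard diet replicate 3 was at 0 like zinc depleted replicates 2 and 3. Pooled over the libraries of a diet, 424 counts stood against 2, a ratio of 273 with an exact 95% interval of 75.1 to 2261 that covers counting error and not the spread between libraries. Exons of the unnamed genes Gm26982 and Gm44033 on the opposite strand overlap Ghrl, and they had at most 3 counts in any library.

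Gip (ENSMUSG00000014351, chromosome 11, 95909127 to 95921657, plus strand), which encodes the glucose-dependent insulinotropic peptide of K cells, had 56, 188 and 0 counts in St_TNF, against 14, 0 and 11 in ZincDef_TNF. Standard diet replicate 2 was highest at 30.6 CPM, followed by standard diet replicate 1 at 7.63 CPM, and no other library exceeded 1.40 CPM. Gcg (ENSMUSG00000000394, chromosome 2, 62304873 to 62313997, minus strand), which encodes proglucagon, the precursor of the glucagon-like peptides of L cells, had 27, 87 and 0 counts in St_TNF, against 1, 0 and 64 in ZincDef_TNF. Its level was 14.2 CPM in standard diet replicate 2, 5.01 CPM in zinc depleted replicate 3 and 3.68 CPM in standard diet replicate 1, whereas in TMM CPM zinc depleted replicate 3, at 10.9, lay above standard diet replicate 2, at 9.44. Of Ghrl, Gip and Gcg, Gcg alone ranked higher in a zinc depleted library (replicate 3) than in standard diet replicate 1.

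Cck (ENSMUSG00000032532, chromosome 9, 121315695 to 121324863, minus strand), which encodes cholecystokinin, had 36, 20 and 16 counts in St_TNF, against 5, 0 and 3 in ZincDef_TNF. These are 4.91, 3.26 and 1.60 CPM against 0.50, 0 and 0.23 CPM, and the groups did not overlap on this scale or in TMM CPM. Tac1 (ENSMUSG00000061762, chromosome 6, 7554120 to 7565834, plus strand), which encodes the precursor of substance P and is found in enterochromaffin cells, had a different order of libraries. It had 8, 1 and 77 counts in St_TNF, against 40, 22 and 74 in ZincDef_TNF. Its 2 lowest libraries, at 1.09 and 0.16 CPM, were standard diet replicates 1 and 2, the same libraries in which Ghrl and Gip were highest. Its highest library was standard diet replicate 3 in CPM, at 7.72, and zinc depleted replicate 3 in TMM CPM, at 12.6.

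**Figure D1:**
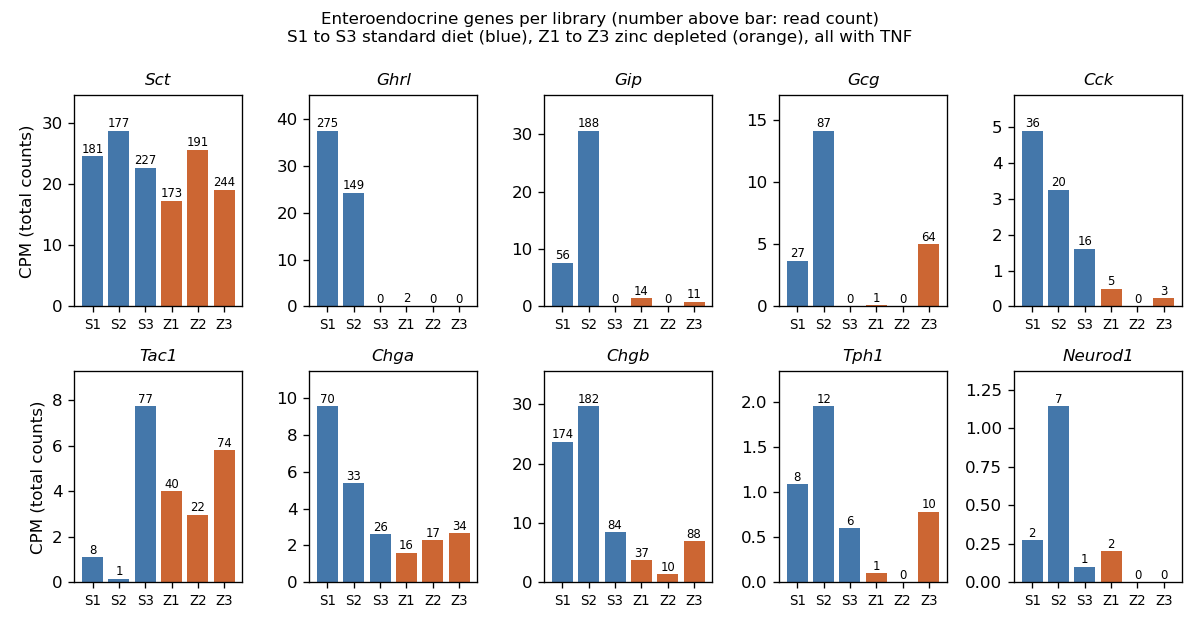
Level of each of the 10 enteroendocrine genes in CPM of the total counts (y axis, separate scale per gene, from 0) in the 3 standard diet libraries (S1 to S3, blue) and the 3 zinc depleted libraries (Z1 to Z3, orange), with the read count above each bar. Sct stayed between 17.3 and 28.8 CPM, Ghrl was high in S1 and S2, and Tac1 was lowest in these 2 libraries.

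The granins are acidic proteins of the dense core granule that nearly all enteroendocrine subtypes contain. Chgb (ENSMUSG00000027350, chromosome 2, 132622464 to 132637904, plus strand) had 174, 182 and 84 counts in St_TNF, against 37, 10 and 88 in ZincDef_TNF. Its levels were 23.7, 29.6 and 8.42 CPM against 3.70, 1.35 and 6.89 CPM, without overlap, whereas in TMM CPM zinc depleted replicate 3, at 15.0, lay above standard diet replicates 1 and 3. Chga (ENSMUSG00000021194, chromosome 12, 102520484 to 102531300, plus strand) had 70, 33 and 26 counts in St_TNF, against 16, 17 and 34 in ZincDef_TNF. Its levels were 9.54, 5.38 and 2.61 CPM against 1.60, 2.29 and 2.66 CPM, and the groups overlapped. In TMM CPM zinc depleted replicate 3 was highest, at 5.80, next to 5.54 in standard diet replicate 1.

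Tph1 (ENSMUSG00000040046, chromosome 7, 46294065 to 46321965, minus strand), the tryptophan hydroxylase of enterochromaffin cells, had 8, 12 and 6 counts in St_TNF, against 1, 0 and 10 in ZincDef_TNF. Neurod1 (ENSMUSG00000034701, chromosome 2, 79282865 to 79287294, minus strand) had 2, 7 and 1 counts in St_TNF, against 2, 0 and 0 in ZincDef_TNF. It exceeded 3 counts in standard diet replicate 2 alone, so its level was not measurable elsewhere at this depth.

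Per kilobase of the canonical transcript, the mean level over the 6 libraries fell in the order Sct (44.3 CPM per kb), Ghrl (11.0), Gip (10.3), Gcg (3.50), Chgb (3.37), Chga (2.06), Tac1 (1.52), Cck (0.44), Tph1 (0.18) and Neurod1 (0.10). The range over libraries of each gene overlapped that of the next, including 33.2 to 55.3 CPM per kb for Sct and 0 to 39.9 for Ghrl. Compared within each library, however, Sct was above all the other genes per kilobase. In the ZincDef_TNF libraries, Sct stood at a mean of 39.7 CPM per kb, followed by Tac1 at 1.78, Gcg at 1.56, Gip at 1.15, Chga at 1.12 and Chgb at 1.09. The value of Gcg came almost wholly from zinc depleted replicate 3, since its counts there were 1, 0 and 64 in replicates 1, 2 and 3. The order uses 1 transcript per gene from a later annotation release than that of the alignment, and the long models of Cck (3989 bases) and Tph1 (4254 bases) lower their values.

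The make-up of the enteroendocrine counts was compared next, because the share of each gene among the 10 does not depend on how libraries are scaled. The 10 genes together had 837, 856 and 437 counts in St_TNF, against 291, 240 and 528 in ZincDef_TNF. In standard diet replicate 1, Ghrl led with 32.9% of these counts (Wilson 95% interval 29.8 to 36.1), before Sct with 21.6% and Chgb with 20.8%. In standard diet replicate 2, Gip had 22.0% (19.3 to 24.9), Chgb 21.3%, Sct 20.7% and Ghrl 17.4%. The other 4 libraries were led by Sct, with 51.9% (47.3 to 56.6) in standard diet replicate 3 and 59.5%, 79.6% and 46.2% in zinc depleted replicates 1, 2 and 3. Standard diet replicate 3 shared the lead of Sct with the zinc depleted libraries and not with its own group, with Ghrl, Gip and Gcg at 0 counts and Tac1 at 17.6%. In zinc depleted replicate 3, Gcg had 12.1% (9.61 to 15.2), near its 10.2% (8.31 to 12.4) in standard diet replicate 2, while Ghrl was at 0 and Gip at 2.08%.

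**Figure D2:**
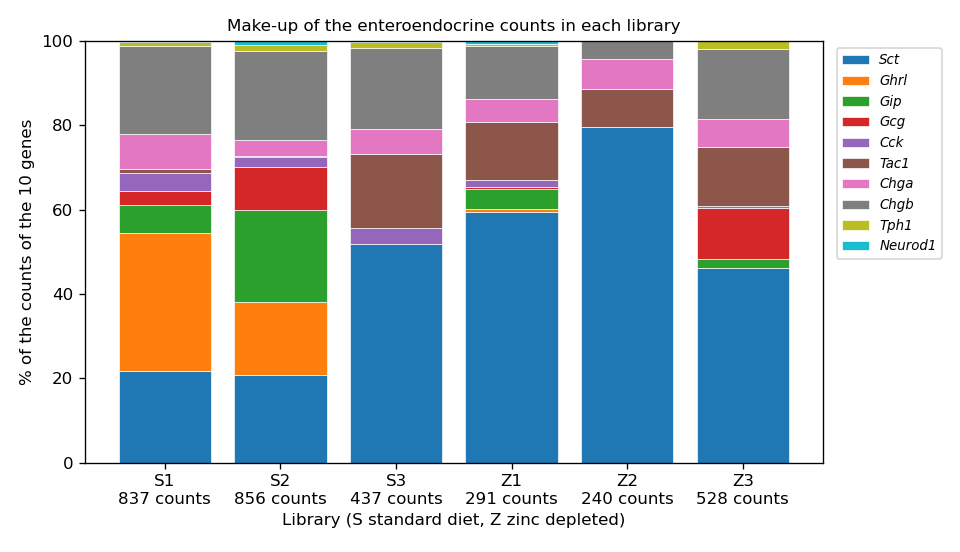
Share of each gene among the counts of the 10 enteroendocrine genes (y axis, %) in each library (x axis, S standard diet, Z zinc depleted, with the summed count). Sct took 20.7% to 21.6% in S1 and S2 and 46.2% to 79.6% in the other 4 libraries, where Tac1 was also larger and Ghrl was at or near 0.

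Coherence between hormones and granins was examined per library. The 2 granins summed to 33.2, 35.0 and 11.0 CPM in St_TNF, against 5.30, 3.63 and 9.55 in ZincDef_TNF. The 5 hormone genes other than Sct summed to 54.8, 72.5 and 9.32 CPM in St_TNF, against 6.20, 2.96 and 11.9 in ZincDef_TNF. In CPM of the total, both sums were highest in standard diet replicates 1 and 2 and lowest in zinc depleted replicate 2. In TMM CPM the granins summed to 19.3, 23.3 and 12.3 in St_TNF, against 3.65, 5.69 and 20.8 in ZincDef_TNF. The 5 hormone genes summed on that scale to 31.8, 48.3 and 10.4, against 4.27, 4.64 and 25.9. There, both sums were lowest in zinc depleted replicate 1, and the granin sum of zinc depleted replicate 3 exceeded that of standard diet replicate 1. In CPM of the total, Sct did not share the pattern of these sums. In TMM CPM it too was lowest in zinc depleted replicate 1, at 11.9, and zinc depleted replicate 3, at 41.6, exceeded standard diet replicate 1, at 14.3. Per Chgb count there were 1.04 and 0.97 Sct counts in standard diet replicates 1 and 2, but 4.68, 19.1 and 2.77 in zinc depleted replicates 1, 2 and 3. Standard diet replicate 3, with 227 Sct and 84 Chgb counts, was like the latter. Gip and Chgb stood at 1.03 Gip counts per Chgb count in standard diet replicate 2 but at 0 in standard diet replicate 3, where 84 Chgb counts were found.

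The 2 granins did not keep a fixed ratio. Chga made up 28.7% (Wilson 95% interval 23.4 to 34.7), 15.3% (11.1 to 20.8) and 23.6% (16.7 to 32.4) of the granin counts in St_TNF. With zinc depletion it made up 30.2% (19.5 to 43.5), 63.0% (44.2 to 78.5) and 27.9% (20.7 to 36.4). The value of zinc depleted replicate 2, from 27 counts, lay above the interval of every other library, and that of standard diet replicate 2 lay below the interval of replicate 1 of the same diet.

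Over the 6 libraries, Chga was compared with each of the other 9 genes in log2 TMM CPM (prior count 2). Its Pearson r with Chgb was 0.64 (p = 0.186, adjusted 0.617 over the 9 relations) and its Spearman rho was 0.37 (p = 0.497, adjusted 0.803; exact two-sided permutation tests). Without zinc depleted replicates 1 and 3, the 2 libraries farthest from the median of Chga, r was 0.24 over the 4 that were left. Pearson r was 0.61 with Gcg, 0.60 with Tph1, 0.52 with Sct, 0.32 with Ghrl, 0.29 with Cck, 0.25 with Gip, -0.02 with Tac1 and -0.12 with Neurod1, and no relation passed the threshold of 0.05 (smallest adjusted p 0.617, exact permutation). Spearman rho over the same 8 genes ran from -0.32 with Neurod1 (p = 0.544) to 0.60 with Sct (p = 0.242), and without the 2 farthest libraries r ran from -0.63 with Sct to 0.71 with Ghrl (exact permutation tests, smallest adjusted p of rho 0.803). With total counts as the scale, r was 0.81 with Chgb (p = 0.0431, adjusted 0.183), 0.90 with Ghrl (p = 0.05, adjusted 0.183) and -0.69 with Tac1 (p = 0.124, adjusted 0.196; exact permutation tests). On that scale too, no relation had an adjusted p under 0.05. The 2 libraries farthest from the median of Chga were there standard diet replicates 1 and 2. Without them r was 0.38 with Chgb, -0.96 with Ghrl and 0.53 with Tac1 over the 4 that were left, where Ghrl had at most 2 counts.

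The genes whose pattern was most like that of Chga, by Pearson r of log2 TMM CPM over the 6 libraries, were not enteroendocrine genes of any list used here. Of 9742 other tested genes, 209 had an r of at least 0.9. The 8 highest were Mrpl49, Pigyl, H2az2, Hadhb, Bag2, Snx5, Pafah1b3 and Lonp2, with r from 0.986 to 0.993. Mrpl49 encodes a protein of the mitochondrial ribosome, Hadhb a subunit of the mitochondrial enzyme of fatty acid oxidation and H2az2 a histone variant. H2az2, for instance, had 35.5, 24.5 and 19.0 TMM CPM in St_TNF and 4.95, 26.4 and 42.1 in ZincDef_TNF, so that zinc depleted replicate 1 was lowest and zinc depleted replicate 3 highest, as for Chga.

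To compare St_TNF with ZincDef_TNF, 9749 genes that passed a filter on low counts were tested with edgeR. The filter kept 7 of the 10 enteroendocrine genes and removed Ghrl, Tph1 and Neurod1. None of the 7 had an adjusted p under 0.05, and neither did any of the other genes (percent called 0%, smallest adjusted p 0.681). DESeq2 and limma-voom also called 0 of the 7, while over all genes DESeq2 called 10 and limma-voom 0. At an unadjusted p under 0.05 there were 2 of the 7, Cck and Gip, both lower under zinc depletion, against 6.62% of all tested genes (645 genes), made up of 4.03% lower and 2.58% higher. Of the 7, 5 were lower and 2 higher in ZincDef_TNF, with a median log2 fold change of -0.24 beside 0.00 for all tested genes. These counts describe the genes that the filter kept, and Cck was kept only through its St_TNF libraries.

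Cck had the smallest p of the 7, but it passed the low-count filter only through its St_TNF libraries, where it was high. Its p and the separation of its groups therefore depend in part on that selection. Its level was 3.26 CPM (SD 1.65, n = 3) in St_TNF and 0.25 CPM (SD 0.25, n = 3) in ZincDef_TNF. The log2 fold change, zinc depleted minus standard diet, was -2.84 (SE 0.80, edgeR unadjusted p 0.00440, adjusted p 0.681). Over the alternatives it ran from -3.60 to -2.39, with adjusted p from 0.133 to 1.00. Its groups did not overlap in TMM CPM, which was so for 6.58% of all tested genes in this direction and 3.51% in the other, and in CPM of the total, which was so for 10.3% and 0.554%. Chgb was separate on the latter scale only, and the other 5 tested genes overlapped on both.

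Gip had 12.8 CPM (SD 15.9, n = 3) in St_TNF and 0.75 CPM (SD 0.71, n = 3) in ZincDef_TNF. Its log2 fold change came to -3.06 (SE 1.31, edgeR unadjusted p 0.0392, adjusted p 0.681). The value rested on standard diet replicate 2, and was -1.21 without it, and -1.38 with limma-voom on all libraries. Without the low-count filter, edgeR called Gip (adjusted p 0.00065) although standard diet replicate 3 was at 0. Chgb had 20.6 CPM (SD 11.0, n = 3) in St_TNF, against 3.98 CPM (SD 2.78, n = 3). Its log2 fold change came to -1.14 (SE 0.67, edgeR adjusted p 0.681). It was -2.55 without zinc depleted replicate 3, -0.70 without zinc depleted replicate 1 or 2, -1.72 with limma-voom and -2.36 with total counts only. Chga had 5.84 CPM (SD 3.49, n = 3) in St_TNF, against 2.18 CPM (SD 0.54, n = 3). Its log2 fold change came to -0.24 (SE 0.61, edgeR adjusted p 0.910). That of Chga was -1.41 with total counts only and turned positive without standard diet replicate 1 (0.07) or zinc depleted replicate 1 (0.24). With total counts only, the median of all tested genes was itself -0.67.

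Gcg gave no stable direction. Its log2 fold change came to -0.11 (SE 1.49, edgeR adjusted p 0.988), and it ran from -5.89 without zinc depleted replicate 3 to 1.69 without standard diet replicate 2. Sct had 25.4 CPM (SD 3.11, n = 3) in St_TNF and 20.7 CPM (SD 4.42, n = 3) in ZincDef_TNF. Its log2 fold change came to 0.67 (SE 0.49, edgeR adjusted p 0.711) relative to the other genes and -0.30 with total counts only, where the median of all tested genes was -0.67. Tac1 had 2.99 CPM (SD 4.12, n = 3) in St_TNF, against 4.25 CPM (SD 1.43, n = 3). Its log2 fold change came to 1.10 (SE 1.05, edgeR adjusted p 0.771). Without standard diet replicate 3 it was 4.07 (edgeR unadjusted p 0.00141, adjusted p 0.106), and without zinc depleted replicate 3 it was 0.27.

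**Figure D3:**
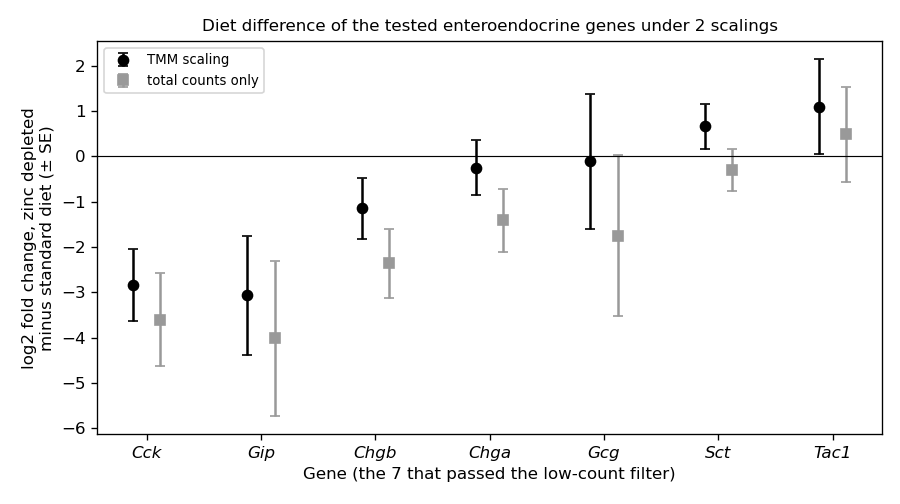
Log2 fold change (y axis, zinc depleted minus standard diet, bars ± SE from edgeR) of the 7 tested enteroendocrine genes (x axis) with TMM scaling (black circles) and with total counts only (grey squares). Cck, Gip and Chgb lay below 0 under both scalings, and Sct crossed 0 between them, from 0.67 to -0.30; none passed the threshold.

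Of the genes the filter removed, Ghrl was tested in the fits that kept it. With 1 library left out, the filter asks for fewer libraries. Ghrl then passed only through standard diet replicates 1 and 2, where it was high, so those p-values depend on that selection. Ghrl was called in 2 of the fits that tested it, 1 of which left out the St_TNF library that overlapped ZincDef_TNF. edgeR gave a log2 fold change of -7.69 and an adjusted p of 0.00822 without standard diet replicate 3, the standard diet library with 0 counts, and -7.15 and 6.39e-15 without the low-count filter. Without zinc depleted replicate 2 or 3 the log2 fold change was -6.86 or -6.77 (edgeR unadjusted p 0.00632 and 0.00405, adjusted p 0.951 and 0.862). Without zinc depleted replicate 1, where the libraries left in ZincDef_TNF were all at 0 and the fitted value of -9.71 is no bound, the adjusted p of edgeR was 0.130 (unadjusted 0.0131). The other fits did not keep Ghrl. Without the filter 0.427% of 17790 genes were called. The pooled counts of Tph1 were 26 in St_TNF and 11 in ZincDef_TNF, and those of Neurod1 were 10 and 2.

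The 10 genes summed to 114, 139 and 43.8 CPM in St_TNF, against 29.1, 32.3 and 41.3 in ZincDef_TNF. The means were 99.1 CPM (SD 49.5, n = 3), against 34.3 CPM (SD 6.34, n = 3). In TMM CPM they were 69.3 ± 22.2 and 53.6 ± 35.1 (SD, n = 3 each), with zinc depleted replicate 3, at 90.1, next to the highest library. In CPM of the total, standard diet replicate 3 lay close to the zinc depleted libraries, and standard diet replicates 1 and 2 stood above the other 4.

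Other genes of the enteroendocrine programme were then counted from lists of their roles, and edgeR called 0 of their 23 tested members, 1 of which stood on 2 lists (DESeq2 and limma-voom also called 0). At an unadjusted p under 0.05 there were 4 of the 23, all lower in ZincDef_TNF, beside 6.62% of all tested genes and 4.03% lower. These were Sst, Sox4, Foxa2 and Ddc, the last pair named after their values were seen. Foxa2, a forkhead factor of the endoderm, had 61, 55 and 15 counts in St_TNF, against 19, 6 and 0 in ZincDef_TNF (log2 fold change -2.20, edgeR adjusted p 0.681). Ddc, the decarboxylase of amine synthesis, had 125, 95 and 30 counts in St_TNF, against 31, 14 and 30 in ZincDef_TNF (log2 fold change -1.23, edgeR adjusted p 0.681). Among 12 other gut hormone genes, 6 were at 0 in every library (Gal, Insl5, Nmu, Nts, Ucn3 and Vip) and 2 were tested. Sst, which encodes the somatostatin of D cells, had 120, 173 and 14 counts in St_TNF, against 32, 9 and 0 in ZincDef_TNF. Its groups overlapped and its log2 fold change came to -2.79 (SE 0.95, edgeR unadjusted p 0.0135, adjusted p 0.681). Gast, which encodes the gastrin of G cells, had 124 counts in standard diet replicate 2 and 0 in each of the other 5 libraries. Standard diet replicate 2 was thus highest for Sst, Gast, Sct, Gip, Gcg, Chgb, Tph1 and Neurod1 in CPM, whereas replicate 1 was highest for Ghrl, Cck and Chga.

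Of 21 transcription factors of the lineage, 4 were tested, 1 higher and 3 lower in ZincDef_TNF (median log2 fold change -1.25, all tested genes 0.00). Foxa1, a factor of gut epithelium more widely, had 38.8 CPM in zinc depleted replicate 1 and 3.99 to 19.7 CPM elsewhere. Sox4, which acts in early secretory and tuft lineages, had 21.8, 12.7 and 3.31 CPM in St_TNF, against 5.10, 1.62 and 0.31 in ZincDef_TNF (log2 fold change -1.84, SE 0.62, edgeR adjusted p 0.681). Neurog3, the factor that starts the enteroendocrine fate and is named here after its values were seen, had 30, 8 and 0 counts in St_TNF, against 10, 1 and 0 in ZincDef_TNF. It was present in the libraries with Ghrl counts and in zinc depleted replicate 2 with 1 count.

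Of 14 other genes of prohormone processing and dense core granules, 3 were tested and all 3 were lower, with a median of -0.09. Ptprn2, a phosphatase-like protein of secretory granules, had 60.9, 60.3 and 24.9 CPM in St_TNF, against 89.6, 14.1 and 5.95 in ZincDef_TNF. Pcsk1, the convertase that cuts prohormones, had 11.9, 14.8 and 8.22 CPM against 14.1, 5.79 and 2.90 CPM. Many other genes of this list were sparse, and the number with any count was 10, 13 and 8 of the 14 in the St_TNF libraries and 8, 6 and 5 in the ZincDef_TNF libraries. Over all genes, the number with any count was 14289, 13902 and 13528 in St_TNF, against 14058, 12507 and 12421 in ZincDef_TNF. The sparse genes that follow are named after their values were seen. Cpe, which trims cut prohormones, had 34, 32 and 0 counts in St_TNF, against 7, 3 and 2 in ZincDef_TNF. The granin family gene Scg2 had 8, 10 and 3 counts in St_TNF and 0 in each ZincDef_TNF library, and Scg3 had 2, 6 and 4 counts and likewise 0. The convertase gene Pcsk2 had 0, 12 and 1 counts in St_TNF and also 0 in each ZincDef_TNF library, so its groups overlapped at 0. Other sparse genes of the list did not split like Scg2 and Scg3 either. Scg5 had 3, 3 and 1 counts against 3, 1 and 0, and Vgf had 0, 5 and 0 against 2, 0 and 0. Ptprn had 1, 2 and 0 counts against 0, 0 and 2, and Resp18 had 0 in St_TNF and 1, 0 and 0 in ZincDef_TNF. Many of these counts are at or near the limit of 3, and the share of all genes with such a split was not counted.

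Of 9 other genes of amine synthesis and transport, 6 were tested, 2 higher and 4 lower (median -0.18). The vesicular monoamine transporter gene Slc18a1 had 30.2, 21.8 and 15.0 CPM in St_TNF, against 46.9, 13.1 and 6.65 in ZincDef_TNF, while Slc18a2 was at 0 throughout. Qdpr, which recycles the cofactor of amine synthesis, had 13.6 to 45.5 CPM over the libraries. Of 16 genes of regulated exocytosis and excitability, 2 were tested, 1 in each direction. Syt7, a calcium sensor of exocytosis, had 51.9 CPM in zinc depleted replicate 1 and 4.23 to 24.9 CPM elsewhere, and Cplx2, a complexin, had at most 4.63 CPM. Foxa1, Ptprn2, Slc18a1 and Syt7 therefore shared a maximum in zinc depleted replicate 1, where none of the 10 enteroendocrine genes was highest.

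Of 14 receptor genes of enteroendocrine cells, 12 were found in the table and 6 of these were at 0 in every library (Casr, Cckar, Galr1, Glp1r, Gpbar1 and Gpr142). The fatty acid receptor gene Ffar4 was the one tested, with 1.49 to 8.41 CPM and a log2 fold change of 0.08, and Ffar1 had 7 and 1 counts in standard diet replicates 1 and 2 and 0 elsewhere. Of 16 other marker genes, 15 were found and 6 were tested, 5 higher and 1 lower (median 0.37). Reg4, a lectin gene that Paneth and goblet cells also express, had 1112 to 2801 CPM, and Marcksl1 had 33.4 to 206 CPM with its maximum in zinc depleted replicate 1.

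Markers of some other cells were high in the libraries that were rich in hormone genes. The 11 enterocyte markers summed to 335, 343 and 80.6 CPM in St_TNF, against 127, 48.9 and 55.4 in ZincDef_TNF, with 8 to 11 of them counted per library and Anpep the highest. The 8 tuft cell markers summed to 218, 969 and 34.6 CPM in St_TNF, against 239, 92.2 and 44.3 in ZincDef_TNF, with 7 or 8 counted per library and Trpm5 the highest. The 6 stem cell markers, led by Olfm4, summed to 1251 to 3906 CPM in St_TNF and 526 to 731 CPM in ZincDef_TNF, and the 5 proliferation markers, led by Pcna, to 67.9 to 168 CPM and 34.1 to 49.7 CPM in the same order. Neither sum overlapped between the diets in CPM of the total, but both did in TMM CPM. On that scale the stem sums were 1018 to 2267 in St_TNF and 503 to 1227 in ZincDef_TNF, and the proliferation sums were 57.3 to 97.3 and 34.2 to 88.6. The 7 goblet cell markers, led by Spink4, summed to 7639 to 9010 CPM and 5866 to 12746 CPM. In CPM the highest sum was that of zinc depleted replicate 1, where Foxa1, Ptprn2, Slc18a1 and Syt7 also had their maximum. There Muc2, named after its values were seen, had 4532 CPM, against 130 to 1445 CPM elsewhere. Of the 8 immune markers, led by Lyz2, Cd3e was at 0 throughout, and the sums were 72.6 to 157 CPM and 66.8 to 98.8 CPM. The enterocyte sum was highest in standard diet replicates 1 and 2, as Ghrl and Gip were, while the tuft sum was highest in standard diet replicate 2 and zinc depleted replicate 1. The part of these cells in the enteroendocrine result was not tested.

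The 10 genes are also expressed by other tissues, whose markers were checked. Among the markers of enteric neurons and glia, Elavl3, Prph, S100b, Sox10 and Uchl1 were at 0 in every library, and the list, led by Ret, summed to 0.705 to 9.40 CPM. Of 10 pancreas markers, 9 were at 0 in every library, Ins1 and Ins2 among them, and Ctrb1 had 1 count in each of 2 libraries.

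**Figure D4:**
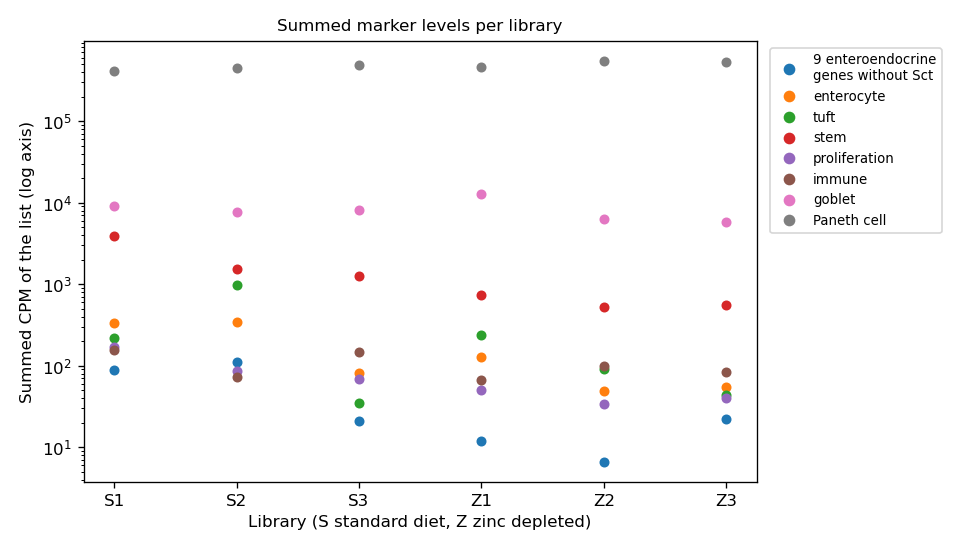
Summed CPM (y axis, log scale) of the 9 enteroendocrine genes other than Sct and of 7 marker lists in each library (x axis, S standard diet, Z zinc depleted), 1 point per library. The enteroendocrine sum was 89.4 and 111 CPM in S1 and S2 and 6.59 to 22.2 CPM in the other 4 libraries, and the enterocyte sum was highest in S1 and S2 too, at 335 and 343 CPM.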

How the data were processed

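RNA-seq was performed by the authors on Paneth cells sorted by FACS. Raw read counts were deposited by the authors, with 1 column for each library. The submitters' processing notes name Trimmomatic 0.39, STAR 2.7.10a and the build mm39 (GRCm39), and the study's methods describe STAR with GENCODE M30. How strand and multiply matching reads were handled, and by which counting program, is not given in the sources used here. Symbols, positions and transcript lengths came from GENCODE M39 on GRCm39 (54749 of 55414 identifiers matched).

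Groups came from the sample titles, and zinc depleted was compared with standard diet, 3 libraries each. The design text speaks of 4 replicates. Genes kept by filterByExpr were tested with the quasi-likelihood test of edgeR 4.0.16 (R 4.3.3, TMM, diet as the only term, two-sided, Benjamini-Hochberg over all tested genes, threshold 0.05). The SE is the absolute log2 fold change over the square root of F. The total counts per library limit precision as given in the text. Alternatives were DESeq2 1.42.0, limma-voom (limma 3.58.1), RLE factors, total counts only, fits without alpha-defensins, without the filter, with a replicate block and without each library. The procedure was tested on simulated data.

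The 10 genes and the lists were chosen with earlier results of these data known. The text names the 10 genes; per list, the 2 of highest mean CPM and those called; per marker list, the highest gene and those at 0; and the 8 genes most like Chga. A marker gene of enteric neurons is not reported here.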

Additional observations from a re-analysis of the deposited data

How the results depend on the processing

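The call of 0 genes over all tested genes became 10 with DESeq2 and 76 without the low-count filter, and ranged from 0 to 28 when 1 library was left out, with the 28 arising without standard diet replicate 3. Of the 10 enteroendocrine genes, 0 were called, and 2 (Ghrl and Gip) without the low-count filter. With 1 library left out the number ranged from 0 to 1. The 1 was Ghrl without standard diet replicate 3, where it passed the filter only through the 2 libraries in which it was high. The other lists gave 0 calls and 2 (Sst and Gast) without the filter. The difference in summed CPM, zinc depleted minus standard diet, was -64.8, and -15.7 in TMM CPM; with 1 library left out it ranged from -92.5 to -44.7. The cause of these changes was not tested, other than that omitting the filter admits more genes.

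Directions turned as follows. With 1 library left out, the log2 fold change of Chga ranged from -0.84 to 0.24 and that of Gcg from -5.89 to 1.69. Sct was -0.30 with total counts only. In a fit without both standard diet replicates 1 and 2, chosen after seeing the data, edgeR called 0 genes (43 at an unadjusted p under 0.05) and the lone standard diet library was assumed to vary like the others. There Chga was 0.23, Gcg 7.94, Gip 6.06 and Tac1 -0.39, where Gcg and Gip stand against 0 counts and their fitted values are no bounds. The r of Chga with Neurod1 was 0.54 with total counts only. In TMM CPM without the 2 farthest libraries it was 0.020, and that with Sct was -0.63. The other 46 comparisons of counts and sums gave the same count or a sum of the same sign. The other 120 of single values kept their direction and, where tested, their side of the threshold. Their size could still move far, as for Gcg from -0.11 to -5.89 and for Tac1 from 1.10 to 4.07.

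Whether replicate numbers pair the libraries cannot be told from 3 libraries per group. The correlations of deviations from the group means were 0.15, -0.06 and 0.25 for numbers 1, 2 and 3. Standard diet replicates 1 and 3 correlated best with their own number, and standard diet replicate 2 did not. With the replicate block, edgeR called 0 genes (962 at an unadjusted p under 0.05, against 645 without the block) and 0 of the enteroendocrine genes. Members with few counts, such as Neurod1 and Tph1, are limited by depth.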
